A study of Mus musculus with 20 samples.

Results

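CpG methylation was compared between the 2 sorted promyelocyte fractions of wild-type (WT) mice, the CD34+ early promyelocytes and the CD34- late promyelocytes. All mice carried the FVB/n background, and genomic DNA was profiled by enhanced reduced representation bisulfite sequencing (ERRBS), which reads cytosines near restriction sites and so samples CpG-rich DNA most densely. The comparison held 10 of the 20 libraries of the series, 5 WT CD34+ and 5 WT CD34-, chosen by genotype and sorted fraction in the sample titles. The other 10 libraries, 5 CD34+ and 5 CD34- from PML-RARa transgenic mice of the same background, were used only to read the same windows in other animals' cells. The labels do not say whether each library came from a separate mouse, so p-values measure the spread between these libraries. The age of the mice and the promoter that drives the transgene are not given in the sources used here.

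A promyelocyte is the granulocyte precursor that fills its primary granules with myeloperoxidase and serine proteases before secondary granule proteins such as cathelicidin appear. CD34 is a surface glycoprotein of stem and progenitor cells that is lost as these cells mature. Methyl groups on CpG cytosines are placed by DNMT enzymes and can be lost through TET oxidation or through replication without maintenance. CpG-dense promoters are mostly unmethylated in all cell types, while enhancers and other CpG-poor elements often change their methylation as cells differentiate.

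A cytosine was kept when at least 10 reads covered it in at least 4 of the 5 libraries of each WT group, on chromosomes 1 to 19. There were 1902887 such cytosines, and 92.9% of them lay in 142077 fixed windows of 1000 bp (mm9 coordinates) with at least 3 kept cytosines and a median of 5. Methylation levels are the percent of reads that carried C, and differences are in percentage points, CD34- minus CD34+. Total coverage summed over cytosines ran from 94591788 to 269013583 reads, with a median coverage per cytosine of 36 to 109 reads. The shallowest library, WT CD34+ replicate 1, scattered most: its windows of intermediate level lay a median of 8.93 points away from the middle value of the 4 further CD34+ libraries, against 3.63 to 5.66 points in the 9 remaining libraries. The 10 libraries were spread over 3 flowcells, each with as many CD34+ as CD34- libraries. Every 2 libraries of the same fraction differed by more than sampling noise. Values per library are listed below by title number, 1, 7, 9, 15 and 17 for CD34+ and 2, 8, 10, 16 and 18 for CD34-.

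Mean methylation was slightly lower in the CD34- cells. Over the 1592436 cytosines covered in all 10 libraries, the CD34+ libraries had means of 33.9%, 33.6%, 33.7%, 33.6% and 34.0%. The CD34- libraries had means of 33.4%, 33.2%, 33.2%, 33.1% and 33.5%. The fractions did not overlap, with the highest CD34- mean at 33.5% and the lowest CD34+ mean at 33.6%. Group means were 33.8% ± 0.166 and 33.3% ± 0.170 (SD, n = 5 each), a difference of -0.475 points with p = 0.00794 in a two-sided exact permutation test, the smallest p that 5 against 5 libraries can give. Within flowcells the difference was -0.649, -0.400 and -0.340 points (2, 1 and 2 libraries of each fraction). With reads pooled over cytosines in place of a mean over cytosines, it was -2.66 points with an exact permutation p = 0.198, and over every cytosine that a library lists it was -0.594 points with p = 0.460, so the separation held for cytosines shared by the libraries. The direction was the same in each of these settings.

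Focal differences were much larger than this shift and mostly losses. A window was called at an adjusted p below 0.05 (quasi-binomial logistic model, F test, Benjamini-Hochberg over all windows) with group means at least 10 points apart. Of the 142077 windows, 565 (0.398%) were called, 490 lower in CD34- (0.345%) and 75 higher (0.0528%), so that 86.7% of the calls were losses. Called losses had a median level of 67.2% in CD34+ and 33.4% in CD34-, and a median difference of -24.9 points. Called gains went from a median of 40.8% to 69.3%, with a median difference of 23.9 points. The 5 libraries of each fraction did not overlap in 472 of the 490 losses and in 70 of the 75 gains, against 2.08% of all windows, a description since the calls use the same values. All 490 losses and all 75 gains had the same sign within each of the 3 flowcells, with median differences of -27.2, -26.0 and -20.9 points for losses and 23.8, 22.9 and 21.1 points for gains. This too is a description, since the same libraries made the calls. Where the fractions do not overlap, the sign within each flowcell is fixed.

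**Figure D1:**
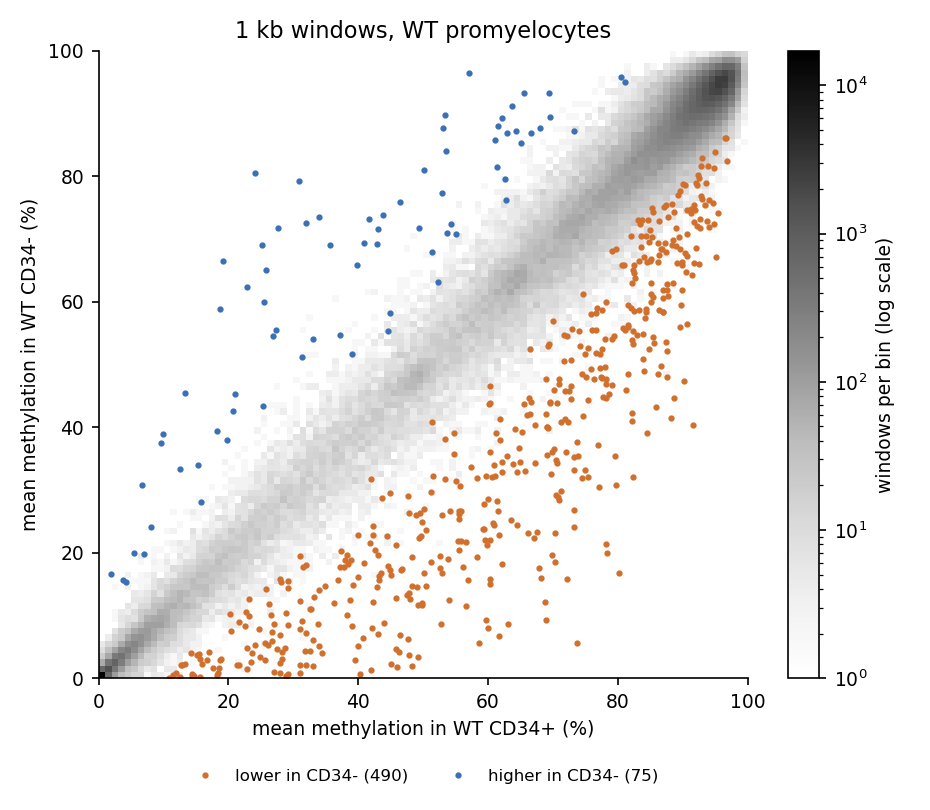
Mean methylation (%) of 142077 windows of 1 kb in WT CD34- (vertical axis) against WT CD34+ (horizontal axis), with grey shading for the number of windows per bin on a log scale and coloured points for called windows. The 490 windows called lower lie below the diagonal at all CD34+ levels above about 10%, and the 75 called higher lie above it, mostly at intermediate levels.

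The number of calls depended on single libraries. Leaving out WT CD34+ replicate 7 gave 319 calls, and leaving out CD34+ replicate 9 gave 322. The number was 344 when CD34- replicate 8 was dropped and 367 when CD34- replicate 18 was. Dropping CD34+ replicate 1, the library with the widest scatter, gave 588 calls. The more conservative limma and edgeR tests called 92 and 71 windows, all of them among the 565. Losses made up 85.1% to 88.3% of the calls when any 1 library was left out.

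Gene starts were placed in the files' mm9 coordinates by matching the CpG spacing of RefSeq promoter sequences (assembly GRCm38.p6, 250 bases before to 50 after each start), and 16811 promoters of 14341 genes were placed. The nearest placed start is therefore not always the nearest gene. Gene ends were not placed, so a window between placed starts can lie inside a gene. Windows over a placed start, 11607 in number, were mostly unmethylated, and 83.0% were below 10% in both fractions. Only 11 of them (0.0948%) were called, all as losses, and all 11 are described here, 9 of them chosen after their values were seen. Their genes were Abca13, Angptl8, Ccnd3, G0s2, Mcemp1, Zbtb7b and the predicted genes Gm12474, Gm35936, Gm39427, Gm39572 and Gm42023. Over all windows on starts the mean level was 11.2% ± 0.0784 in CD34+ and 11.0% ± 0.161 in CD34- (SD, n = 5 each), a difference of -0.176 points with p = 0.0794 in a two-sided exact permutation test.

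The promoters of 5 of these genes are shown, and their measured CpGs lie in windows whose losses are described next. The same holds for Zbtb7b, Ccnd3, Gm12474, Gm35936 and Gm39572, whose promoters are not printed. The printed promoters are RefSeq sequences, 5′ to 3′ on the gene's strand, with the CpGs measured here in capitals. In mm9 the printed promoters lie at chr9:109763883-109764182 (Gm39427, plus strand), chr11:9091695-9091994 (Abca13, plus), chr9:21639704-21640003 (Angptl8, plus), chr8:3665512-3665811 (Mcemp1, plus) and chr1:195099333-195099632 (G0s2, minus).
Gm39427: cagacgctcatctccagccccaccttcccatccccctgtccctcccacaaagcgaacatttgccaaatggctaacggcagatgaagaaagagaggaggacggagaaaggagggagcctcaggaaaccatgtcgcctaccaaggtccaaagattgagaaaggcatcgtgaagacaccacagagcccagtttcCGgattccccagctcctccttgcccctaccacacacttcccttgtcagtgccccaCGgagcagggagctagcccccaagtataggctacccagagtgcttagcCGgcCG
Abca13: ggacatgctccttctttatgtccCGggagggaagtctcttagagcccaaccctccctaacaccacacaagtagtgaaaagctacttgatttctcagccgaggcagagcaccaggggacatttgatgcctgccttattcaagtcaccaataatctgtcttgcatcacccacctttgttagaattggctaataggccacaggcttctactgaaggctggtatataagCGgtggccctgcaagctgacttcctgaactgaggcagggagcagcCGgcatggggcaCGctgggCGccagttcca
Angptl8: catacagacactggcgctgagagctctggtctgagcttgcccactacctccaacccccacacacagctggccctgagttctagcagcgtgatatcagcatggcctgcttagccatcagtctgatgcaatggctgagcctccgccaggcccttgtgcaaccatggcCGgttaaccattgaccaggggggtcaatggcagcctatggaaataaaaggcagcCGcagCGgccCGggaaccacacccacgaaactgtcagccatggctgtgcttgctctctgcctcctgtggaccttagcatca
Mcemp1: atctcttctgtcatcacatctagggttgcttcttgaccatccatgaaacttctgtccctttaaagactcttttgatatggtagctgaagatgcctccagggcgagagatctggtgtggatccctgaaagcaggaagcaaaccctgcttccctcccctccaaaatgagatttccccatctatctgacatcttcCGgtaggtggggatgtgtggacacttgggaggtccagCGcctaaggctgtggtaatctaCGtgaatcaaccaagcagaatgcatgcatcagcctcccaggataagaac
G0s2: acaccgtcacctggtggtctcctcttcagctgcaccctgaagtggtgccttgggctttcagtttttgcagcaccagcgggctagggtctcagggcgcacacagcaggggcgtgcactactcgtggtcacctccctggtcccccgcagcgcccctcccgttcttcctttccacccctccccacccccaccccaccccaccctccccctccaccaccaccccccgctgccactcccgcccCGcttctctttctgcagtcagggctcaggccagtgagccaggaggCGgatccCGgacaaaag

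Gm39427 is a predicted gene whose start window lay 12.0 kb from the start of Camp, the gene of the secondary granule peptide cathelicidin. The window over its start, chr9:109764001-109765000 with 8 cytosines, had levels of 86.9%, 73.0%, 82.9%, 62.3% and 55.8% in CD34+ and of 24.9%, 7.44%, 23.7%, 12.0% and 11.2% in CD34-. All CD34- libraries were below all CD34+ libraries. Means were 72.2% ± 13.2 and 15.8% ± 7.92 (SD, n = 5 each), a difference of -56.3 points (adjusted p = 0.00412). Among the 6 cytosines inside the printed promoter, the 3 between 44 and 48 bases after the start went from 82.7%, 70.1% and 75.8% to 14.2%, 10.8% and 25.3%, and the 3 from 59 to 3 bases before it went from 64.6%, 44.4% and 35.9% to 6.06%, 4.48% and 6.26%. The 1 tested window within 5 kb of the Camp start itself differed by -15.97 points with an adjusted p of 0.164 and was not called.

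Abca13 encodes a large ATP-binding cassette transporter. Its start window, chr11:9091001-9092000 with 10 cytosines, had levels of 69.6%, 66.4%, 56.6%, 53.9% and 54.8% in CD34+ and of 24.5%, 11.4%, 20.1%, 7.29% and 12.2% in CD34-. The groups did not overlap, and the difference of means was -45.1 points (60.2% ± 7.22 against 15.1% ± 7.02, SD, n = 5 each, adjusted p = 0.00158). The loss was uneven along the promoter. The cytosines from 24 bases before the start to 40 bases after it lay between 33.4% and 78.0% in CD34+ and between 0.994% and 18.0% in CD34-, whereas the CpG 227 bases before the start went from 65.5% to 48.6% with an adjusted p of 0.753.

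Angptl8, a secreted regulator of lipoprotein lipase, had a start window at 40.0%, 17.3%, 38.9%, 16.0% and 15.8% in CD34+ and at 1.28%, 2.22%, 2.20%, 7.00% and 1.90% in CD34- (difference -22.7 points, adjusted p = 0.0498). This call was at the edge of the threshold and was lost without any 1 of 9 libraries. Mcemp1, a membrane protein gene of mast cells and mature neutrophils, had 3.39%, 17.1%, 14.4%, 11.1% and 8.65% in CD34+ and 0% in each CD34- library. The difference was -10.9 points (10.9% ± 5.28 against 0%, n = 5 each, adjusted p = 0.00381), and the 1394 CD34- reads allow a level of up to 0.215%, counting error only. Without CD34+ replicate 7 the Mcemp1 window no longer passed.

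G0s2, an inhibitor of adipose triglyceride lipase, went from 22.0%, 12.1%, 8.04%, 11.9% and 10.2% to 3.05%, 1.70%, 2.78%, 0.590% and 2.18%, a difference of -10.8 points (adjusted p = 0.00563) that no longer passed without CD34+ replicate 1. The 4 promoter cytosines of G0s2 had means of 4.61% ± 2.92 and 0.543% ± 0.846 (SD, n = 5 each), below the window's means of 12.9% and 2.06%, which also take in cytosines outside the printed promoter. Ccnd3, the gene of the G1 cyclin D3, showed the same arrangement. Its window went from 17.1%, 25.9%, 29.6%, 20.1% and 27.9% to 3.07%, 7.52%, 9.59%, 1.60% and 4.53% (difference -18.9 points, adjusted p = 0.00669), while its 2 promoter cytosines were at 0% in every library. Zbtb7b, a zinc finger transcription factor gene, fell from 48.4% ± 7.97 to 19.4% ± 5.30 (SD, n = 5 each, adjusted p = 0.00662). The Ccnd3 and Zbtb7b windows were called without each library in turn.

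The start windows of the 4 remaining predicted genes were above 50% in CD34+. The Gm35936 window, all of whose 8 cytosines lay in the promoter, went from 82.3% ± 3.41 to 65.1% ± 5.46 (SD, n = 5 each, adjusted p = 0.0121) and was called without each library in turn. The Gm12474 window went from 74.7% to 41.8% (adjusted p = 0.0135), but its 2 promoter cytosines were at 88.1% and 86.1%, and the call was lost without CD34+ replicate 9 or 17. The Gm39572 window went from 54.8% to 39.2% (adjusted p = 0.0365), and its call was lost without any 1 of 8 libraries and with flowcell in the model. The Gm42023 window went from 83.2% to 73.0% (adjusted p = 0.0144) with no measured cytosine in the promoter, and its call was lost without any 1 of 6 libraries.

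**Figure D2:**
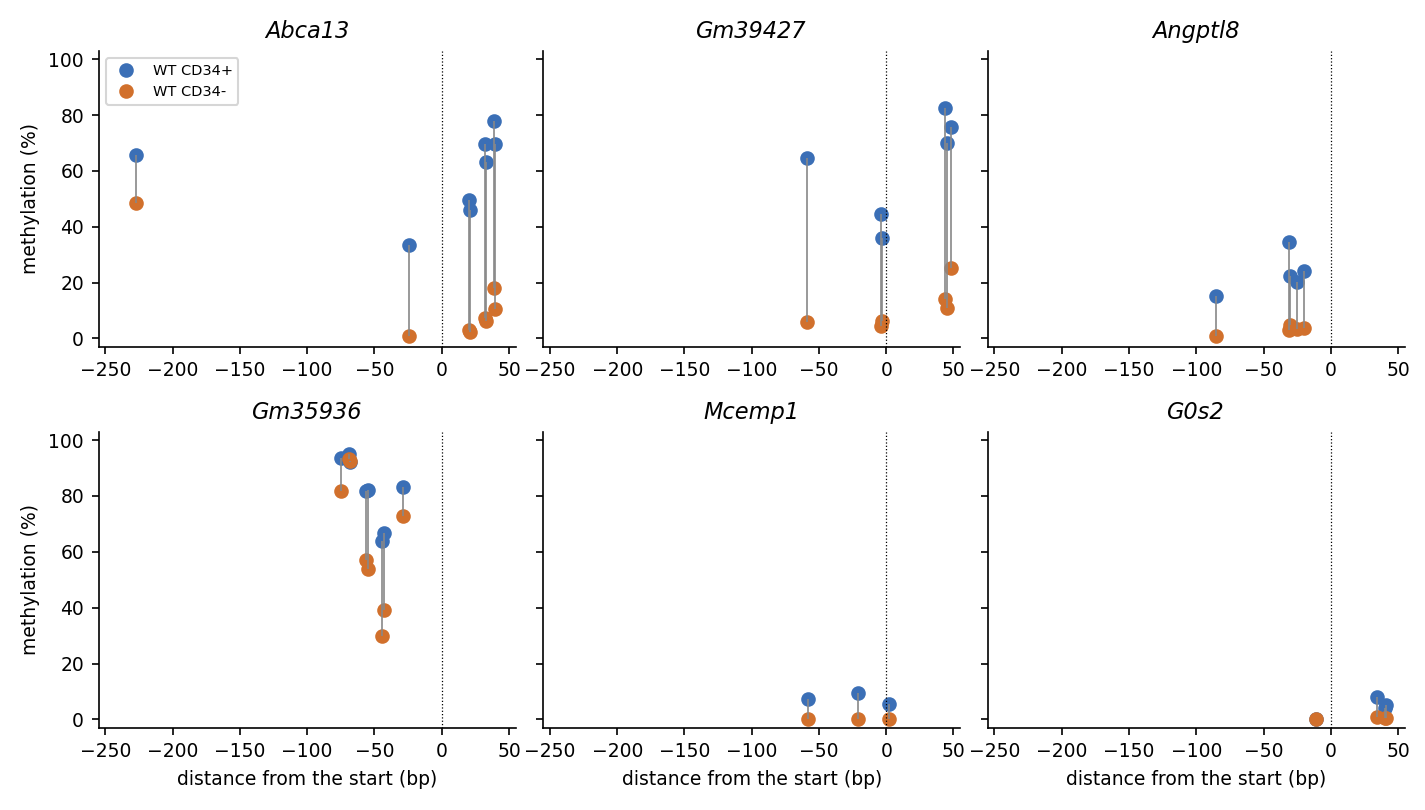
Methylation (%) of each measured cytosine in the promoters of 6 genes against its distance from the start in bp, as means of 5 WT CD34+ (blue) and 5 WT CD34- (orange) libraries joined by a line, with the start as a dotted line. Around the Abca13 start the CD34- means are at or below 18.0%, whereas the cytosine 227 bp before it stays at 48.6%. The Mcemp1 cytosines are at 0% in CD34-.

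The 12 largest decreases, of which the Gm39427 window was the only one over a placed start, began between 58.6% and 80.2% and ended between 5.61% and 21.4%. The first of them in size lay at chr9:50701001-50702000, 36.0 kb from the start of Ppp2r1b, the gene of a scaffold subunit of protein phosphatase PP2A. Levels there were 68.1%, 76.6%, 89.6%, 62.7% and 71.2% in CD34+ and 14.3%, 2.19%, 10.3%, 0.0939% and 1.38% in CD34-. The difference was -68.0 points (73.7% ± 10.2 against 5.64% ± 6.26, SD, n = 5 each, adjusted p = 0.00105), with no overlap. All 5 cytosines of this window took part, with differences between -64.9 and -70.9 points, and each of the 5 also passed the test for single cytosines.

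Second in size was chr1:95716001-95717000, 4.82 kb from the start of D2hgdh, the mitochondrial dehydrogenase that clears D-2-hydroxyglutarate. Its 3 cytosines together had 90.2%, 85.2%, 95.1%, 61.8% and 68.9% in CD34+ and 26.4%, 16.6%, 30.4%, 1.47% and 9.15% in CD34- (difference -63.5 points, adjusted p = 0.0115). The 5 libraries of each fraction again did not overlap. A window 2.49 kb from the start of Srsf5, a splicing factor gene, went from 61.8% ± 14.2 to 6.74% ± 5.07 (SD, n = 5 each, adjusted p = 0.00263), while the CpG-dense windows 3 and 4 kb further on, toward the gene, were at 0.129% and 0.0756% in CD34+ and at 0.0841% and 0.0646% in CD34-. This places the Srsf5 loss outside the unmethylated CpG-dense DNA.

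The remaining large decreases lay farther from placed starts. A window 10.3 kb from the start of Rab3il1, a Rab guanine nucleotide exchange factor gene, lay between it and the start of the desaturase gene Fads3. This window went from 68.8% ± 24.2 to 12.1% ± 7.36 (SD, n = 5 each). Its CD34+ libraries were spread from 38.6% to 95.2%, and its call was lost without CD34+ replicate 7 or CD34- replicate 8, 16 or 18. A window 76.3 kb from the start of Lgmn, the gene of the lysosomal protease legumain, differed by -58.3 points. The placed start on its other side was that of the Rab5 exchange factor gene Rin3. A window between the starts of Sgpl1, the gene of sphingosine-1-phosphate lyase (53.6 kb), and the metalloprotease gene Adamts14 differed by -51.9 points. Another, 12.6 kb from Ech1, a gene of fatty acid oxidation, differed by -52.2 points. The others of the 12 were 101.8 kb from the nucleoporin gene Nup210 (-59.7 points, with the call lost without CD34+ replicate 7), 50.3 kb from Ostf1 (-53.0 points), at chr15:59538001-59539000 (-56.8 points) and at chr18:65071001-65072000 (-54.5 points). No theme was tested for these neighbours.

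Smaller differences with little spread gave the smallest p-values. At chr3:94811001-94812000, 7.16 kb from the start of the zinc finger gene Zfp687, levels were 82.6%, 83.2%, 83.8%, 79.1% and 84.2% in CD34+ and 65.0%, 62.6%, 64.7%, 65.0% and 65.5% in CD34- (difference -18.05 points, adjusted p = 0.000592). The 5 cytosines at its far end carried most of this, with differences of -38.0 to -46.0 points, while the 9 cytosines before them differed by -1.01 to -23.0 points. The adjoining window was also called, at -23.0 points, which made this 1 of only 5 domains with 2 called windows. The other 4 lay nearest 2900060B14Rik, Vsir, Wif1 and Dusp5 (an immune checkpoint receptor, a Wnt inhibitor and an ERK phosphatase for the last 3), and none of the 560 domains held more than 2. Many neighbouring windows were not tested, which limits these counts. The leading window of the Dusp5 domain lost its call without any 1 of 5 libraries and with flowcell in the model.

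Bcar3, the gene of an adaptor protein of integrin signalling, had a called window 12.3 kb from its nearest start, with levels of 87.9%, 76.4%, 72.7%, 68.9% and 71.5% in CD34+ and of 37.2%, 33.8%, 32.8%, 26.8% and 29.5% in CD34- (difference -43.5 points, adjusted p = 0.000592). A window 29.9 kb from Tmem165, a Golgi membrane protein gene, went from 32.6% ± 7.69 to 4.41% ± 1.44 (SD, n = 5 each, adjusted p = 0.000592). Both windows passed limma and edgeR as well, and kept their call without each of the 10 libraries in turn.

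**Figure D3:**
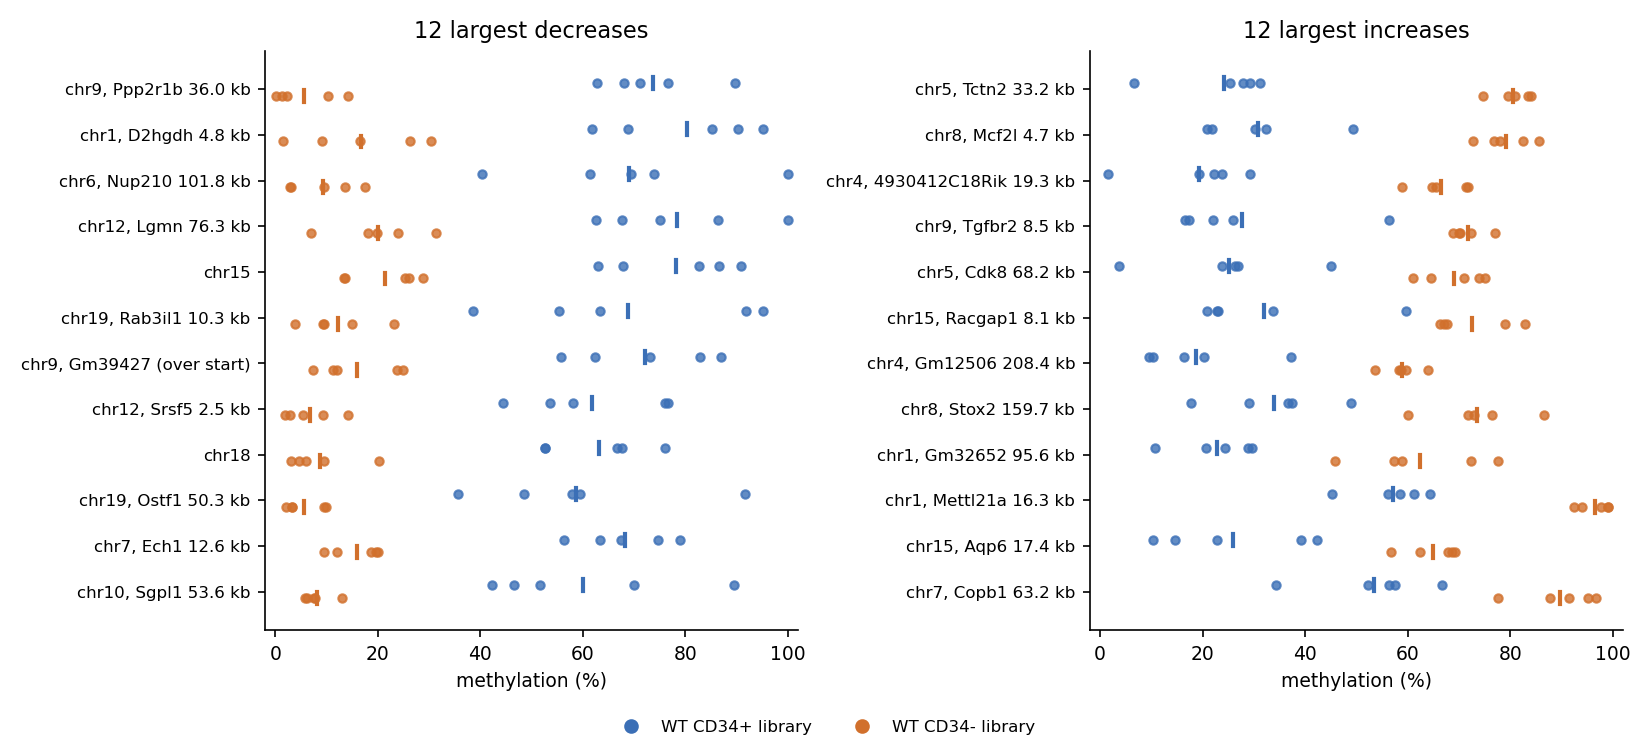
Methylation (%) of each WT CD34+ (blue) and WT CD34- (orange) library at the 12 windows with the largest decrease and the 12 with the largest increase, labelled by chromosome and nearest placed start, with its distance, and with short vertical lines for the group means. In each of the 24 windows the 5 CD34- libraries lie on one side of the 5 CD34+ libraries, and CD34+ libraries are often the more widely spread.

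Gains were fewer and began at low to intermediate levels. The largest, at chr5:125082001-125083000, lay 33.2 kb from Tctn2, a gene of the ciliary transition zone. Its levels were 6.67%, 27.9%, 25.4%, 29.3% and 31.2% in CD34+ and 84.1%, 79.5%, 74.7%, 83.4% and 80.9% in CD34- (difference 56.4 points, adjusted p = 0.000821). All 3 cytosines rose, by 61.1, 50.3 and 61.7 points, while a window 3 kb away was unmethylated in both fractions (0.108% and 0%). Another gain lay 4.72 kb from a start of Mcf2l, where levels went from 20.9%, 30.2%, 21.8%, 49.3% and 32.3% to 78.0%, 82.5%, 76.8%, 72.8% and 85.7% (adjusted p = 0.00478).

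Tgfbr2 encodes the type II TGF-beta receptor, and a window 8.48 kb from its start, chr9:116075001-116076000, had levels of 25.9%, 22.0%, 16.6%, 56.3% and 17.4% in CD34+ and of 68.9%, 70.3%, 70.1%, 77.0% and 72.4% in CD34- (difference 44.1 points, adjusted p = 0.0223). The groups did not overlap, but CD34+ replicate 15 stood apart, and the call was lost without any 1 of 7 libraries. Within this window 4 cytosines differed by 40.5 to 58.0 points, with single-cytosine adjusted p-values from 0.102 to 0.227, and the CpG before them was at 99.0% and 98.6%. The Tgfbr2 promoter itself was at 0.0576% and 0.147%.

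A gain between the starts of Stat5a (31.2 kb) and Stat3 (46.9 kb), genes of cytokine-signalling factors, at chr11:100753001-100754000, was among the most even of the set. Levels were 15.7%, 11.0%, 7.49%, 16.3% and 16.2% in CD34+ and 46.9%, 41.7%, 41.3%, 48.2% and 49.5% in CD34- (difference 32.2 points, adjusted p = 0.00113). It was carried by a CpG that went from 22.5% to 78.2% on one strand and from 22.4% to 77.9% on the other, whereas the next CpG went from 3.10% to 5.59% and from 3.69% to 10.1% on its strands. On the far side of the Stat5a start, 8.89 kb from the start of Stat5b, a window was called lower, from 17.0% ± 7.25 to 4.23% ± 2.20 (SD, n = 5 each, adjusted p = 0.0114). Its groups overlapped, and its call was lost without CD34+ replicate 7. The promoters of Stat5a, Stat5b and Stat3 were at or below 0.113% in both fractions.

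Another gain lay 16.3 kb from the start of Mettl21a, between it and the start of the transcription factor gene Creb1 (57.1% to 96.5%). Gains were also called in 2 windows between the starts of the cytokinesis gene Racgap1 and the water channel gene Aqp6 (32.0% to 72.6% and 25.8% to 65.0%). A further one lay 25.03 kb from the interferon receptor gene Ifnar2 (49.4% ± 3.65 to 71.8% ± 1.90, SD, n = 5 each, adjusted p = 0.000592). A window 18.0 kb from the start of Erg, an ETS factor gene of stem cells, went from 15.8% ± 2.49 to 28.1% ± 3.04 (adjusted p = 0.0408), but did not pass when any 1 of the 10 libraries was left out. The rest of the 12 largest gains were nearest 4930412C18Rik, Cdk8, Gm12506, Stox2, Gm32652 and Copb1, with differences of 36.3 to 47.2 points. The Copb1 call was lost without any 1 of 5 libraries and with flowcell in the model, and the Stox2 call without CD34+ replicate 7.

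Calls were spread over all 19 autosomes, and few adjoined another call. Many windows beside a call held too few kept cytosines to be tested, so how far a change extends is often not known. Uncalled windows 1 kb from a called loss had a median difference of -2.32 points (82.9% of 181 lower, against 61.9% of all windows). Those 2 kb away had -0.401 points (150 windows), next to -0.435 points over all windows. By single cytosines, 94.1% of the 3188 kept cytosines in called losses were lower in CD34- and 91.1% of the 496 in called gains were higher. These shares follow in part from the calls, which sum the same cytosines. The test of single cytosines called 539 of 1902887 (0.0283%), 476 lower (0.025%) and 63 higher (0.00331%), and 352 of these lay in called windows. Where both strands of a CpG were kept and 1 was called, the other strand had the same sign in 160 of 167 cases, though strands of a CpG share the cells and are not replicates. These single-cytosine calls were unstable. With flowcell in the quasi-binomial model none passed (131421 had an unadjusted p below 0.05, against 127876 without it). With 1 CD34+ library left out, 2 (replicate 7), 13 (replicate 17), 44 (replicate 9), 495 (replicate 15) or 515 (replicate 1) cytosines passed, and with 1 CD34- library left out 19 (replicate 18), 31 (replicate 8), 48 (replicate 16), 81 (replicate 2) or 229 (replicate 10).

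Windows of intermediate level held most calls. Of the 25469 windows with a mean level of 20% to 80%, 1.72% were called, with 373 of the 490 losses and 64 of the 75 gains, against 0.253% of the 31189 windows below 20% and 0.0574% of the 85419 above 80%. This share depends in part on the 10-point minimum, which windows near 0% or 100% can reach in 1 direction only. The mean level of the intermediate class was 59.2% ± 0.661 in CD34+ and 57.3% ± 0.806 in CD34-, a difference of -1.87 points (adjusted p = 0.0106, exact permutation test, Benjamini-Hochberg over 8 classes). Windows above 80% differed by -1.04 points (92.7% against 91.7%, same adjusted p), and windows below 20% by -0.162 points (3.06% against 2.90%, exact permutation, adjusted p = 0.0635).

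CpG density gave a like picture. Windows of 3 to 9 cytosines differed by -1.15 points and those of 10 to 19 by -0.817 points (adjusted p = 0.0106 each, exact permutation tests), and windows of 20 or more cytosines by -0.153 points (10.1% against 9.95%, exact permutation, adjusted p = 0.103). Windows within 2 kb of a CpG-dense unmethylated window differed by -0.808 points and those farther away by -1.12 points (adjusted p = 0.0106 each, exact permutation tests). Losses lay a median of 19.3 kb and gains 22.8 kb from the nearest placed start, against 27.5 kb for all windows. Within 5 kb of a start lay 19.6% of losses, 17.3% of gains, 22.6% of all windows and 17.4% of windows of intermediate level.

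**Figure D4:**
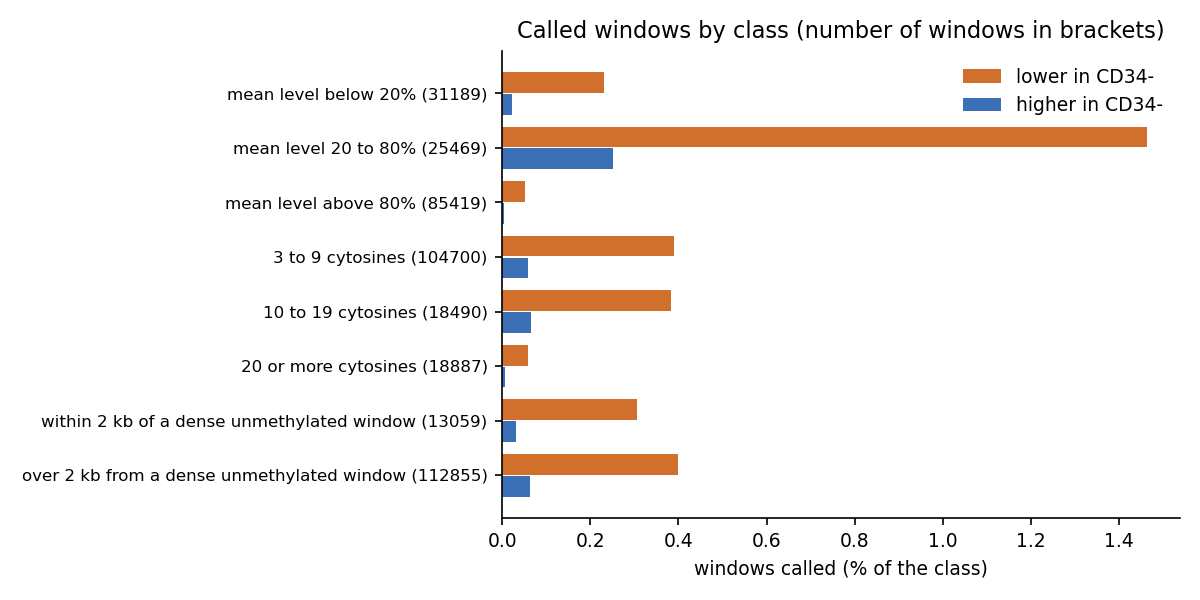
Percent of windows called lower (orange) and higher (blue) in WT CD34- in 8 classes by mean level, number of cytosines and distance to a CpG-dense unmethylated window, with the number of windows of each class in brackets. Windows of intermediate mean level have the highest share of calls, and windows of 20 or more cytosines the lowest of the density classes.

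Of 78 listed genes with a measured promoter cytosine, 62 had a promoter below 5% in both fractions, but the granule protein genes were thinly covered. Below 5% were 2 of 4 measured late neutrophil promoters and 2 of 3 measured primary granule promoters, and Elane, Prtn3, Camp, Mmp8 and Itgam had no measured promoter cytosine. Of 13510 placed genes with a tested window within 5 kb, 133 (0.984%) had a called one, 118 a loss (0.873%) and 15 a gain (0.111%). Among the 12 gene lists, 1 of 7 placed late neutrophil genes had a called window, a loss at Mcemp1, and 0 of the placed members of the other 11 lists did. Late neutrophil genes had a median difference of -4.94 points over their 14 windows within 5 kb, against -0.0272 points over the windows of all placed genes. These windows were not matched for level or CpG density, windows over starts being mostly unmethylated, and only 7 of the 22 genes of the list were placed. The lists and their members were chosen with earlier results of these data known, so these counts and medians are a description. Ngp, a secondary granule protein gene, had 1 promoter cytosine at 22.1% ± 32.4 in CD34+ and 0% in CD34- and a window at -40.6 points with an adjusted p of 0.402, so it did not pass. Ltf and Mmp8 had windows with largest differences of -6.21 and -14.4 points (adjusted p from 0.303).

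In the primary granule list, Elane and Prtn3, the neutrophil serine protease genes, had largest window differences of -11.8 and -8.73 points (smallest adjusted p 0.339 and 0.572), and the Srgn promoter was at 95.1% and 93.9%. The 6 measured promoters of the granulocyte transcription factor list, Cebpa, Cebpb, Gfi1, Irf8, Per3 and Hic1, were all below 5% in both fractions. Near Gfi1, a transcriptional repressor gene, the 5 windows within 5 kb had a smallest adjusted p of 0.00310 and a largest difference of -5.40 points. Near Gata2, a stem cell GATA factor gene, the 13 windows had a smallest adjusted p of 0.0198 and a largest difference of -5.46 points. Such extremes need not come from the same window, and no window of either gene reached the 10-point minimum. Of the 13 measured stem and progenitor promoters 12 were below 5%, and the exception, Prom1, went from 26.6% ± 2.46 to 18.2% ± 4.17 (SD, n = 5 each) with a smallest window adjusted p of 0.0997. The Cd34 promoter had 1 measured cytosine, at 0.756% and 0%.

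All 10 measured promoters of the DNA methylation machinery, among them Dnmt1, Dnmt3a, Dnmt3b, Tet1, Tet2, Tet3 and Uhrf1, and all 8 of the retinoid list, with Rara and Pml, were below 5% in both fractions. In the cytokine and TGF-beta list 13 of 14 promoters were below 5%, and the exception was Csf2ra, the GM-CSF receptor alpha chain gene, at 57.1% ± 10.2 and 42.5% ± 12.4 (SD, n = 5 each, smallest window adjusted p 0.254). Some lists also had a member as the nearest placed start of a called window beyond 5 kb, besides those named above: Smad6, 98.9 kb away (92.5% to 79.8%), the T cell factor gene Tcf7, 9.48 kb away (76.8% to 59.0%), and the imprinted Mcts2, 50.1 kb away (34.5% to 4.00%). The Smad6 call was lost without any 1 of 9 libraries and with flowcell in the model, and the Tcf7 call without any 1 of 5 libraries. The 10 measured imprinted promoters were not alike. Igf2r (37.6% and 30.7%), Plagl1 (34.9% and 33.7%), Meg3 (44.3% and 41.6%) and Zrsr1 (43.1% and 38.4%) lay at intermediate levels in both fractions. Snrpn had 20.7% ± 13.7 and 35.1% ± 7.69, Mest 15.3% ± 17.2 and 30.6% ± 30.5, and Nnat 49.1% ± 5.72 and 35.8% ± 13.5 (SD, n = 5 each). Gnas and Grb10 were below 5% in both fractions, and Mcts2 was at 96.4% and 96.7%. No gene of this list had a called window within 5 kb.

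Genes of other lineages were also read in the sorted fractions, which does not check the purity of the fractions. The T cell gene Cd3e had its 1 promoter cytosine at 86.9% ± 7.49 and 85.6% ± 13.5, and the erythropoietin receptor gene Epor its promoter at 52.9% ± 5.80 and 49.7% ± 3.10 (SD, n = 5 each). No called window lay within 5 kb of the 4 erythroid and megakaryocyte, 2 monocyte, 2 B cell or 3 T and NK cell genes with a tested window there. Over all placed genes the share with a called window was 0.984%, so these genes are too few for the absence of a call to tell anything. The promoters of Pax5, Bcl11b, Gata3 and Klf4 were at or below 4.84% in both fractions, and that of the B cell factor gene Ebf1 was at 6.90% ± 4.28 and 10.4% ± 4.77 (SD, n = 5 each). DNA methylation does not show the CD34 protein, and the part of a change in cell mixture in the calls was not tested.

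The same windows were then read in the PML-RARa libraries, which share no sample with the WT comparison. The PML-RARa differences used cytosines kept in all 4 groups, while the WT calls used those kept in both WT groups. A window can therefore hold fewer cytosines in the PML-RARa reading. Of 469 WT losses measured there, 446 were also lower in PML-RARa CD34- than in PML-RARa CD34+, with a median difference of -13.4 points against -24.7 points in WT. Of 72 WT gains, 71 were also higher, with a median of 13.1 points against 23.4 points. Over all 127276 windows measured in both genotypes, 56.2% were lower in PML-RARa CD34-, with a median of -0.1204 points. Windows with a WT decrease of at least 10 points that were not called had the same sign in 72.7% of 2379 cases, and those with an uncalled increase in 60.8% of 920. WT differences of called windows are the larger values of a selection, so their medians are not on a par with those of PML-RARa libraries.

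Each of the 12 largest WT decreases was also a decrease in the PML-RARa libraries, by values from -46.9 to -15.5 points, and each of the 12 largest gains a gain, of 12.6 to 39.5 points. At the Ppp2r1b window the PML-RARa means were 55.01% and 8.10%, at the Tctn2 window 52.3% and 80.3%, and at the Abca13 start 42.2% and 10.5%. The called Stat5b window had the opposite sign, with PML-RARa means of 13.5% and 15.3%.

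By library, the WT losses averaged 56.2% to 66.3% in WT CD34+, 46.3% to 57.6% in PML-RARa CD34+, 32.6% to 39.5% in WT CD34- and 35.6% to 38.4% in PML-RARa CD34-. The WT gains averaged 35.7% to 44.9%, 43.8% to 52.7%, 61.9% to 65.1% and 62.1% to 67.2% in the same order. In CD34- the 2 genotypes overlapped at both sets. In CD34+ the means were 62.2% ± 4.19 in WT and 50.9% ± 4.33 in PML-RARa at the losses and 39.8% ± 3.37 and 49.4% ± 3.31 at the gains (SD, n = 5 each), without a test since the WT libraries chose the windows. Unlike the WT fractions, the PML-RARa fractions were spread unevenly over the flowcells, and the part of the flowcell in their differences was not tested. No window differed in its maturation change between genotypes at an adjusted p below 0.05 (interaction term of the quasi-binomial model, smallest adjusted p 0.592, 6557 windows or 5.15% with an unadjusted p below 0.05), so a smaller change in PML-RARa is not shown for any single window. The interaction also gave 0 calls with flowcell in the model.

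**Figure D5:**
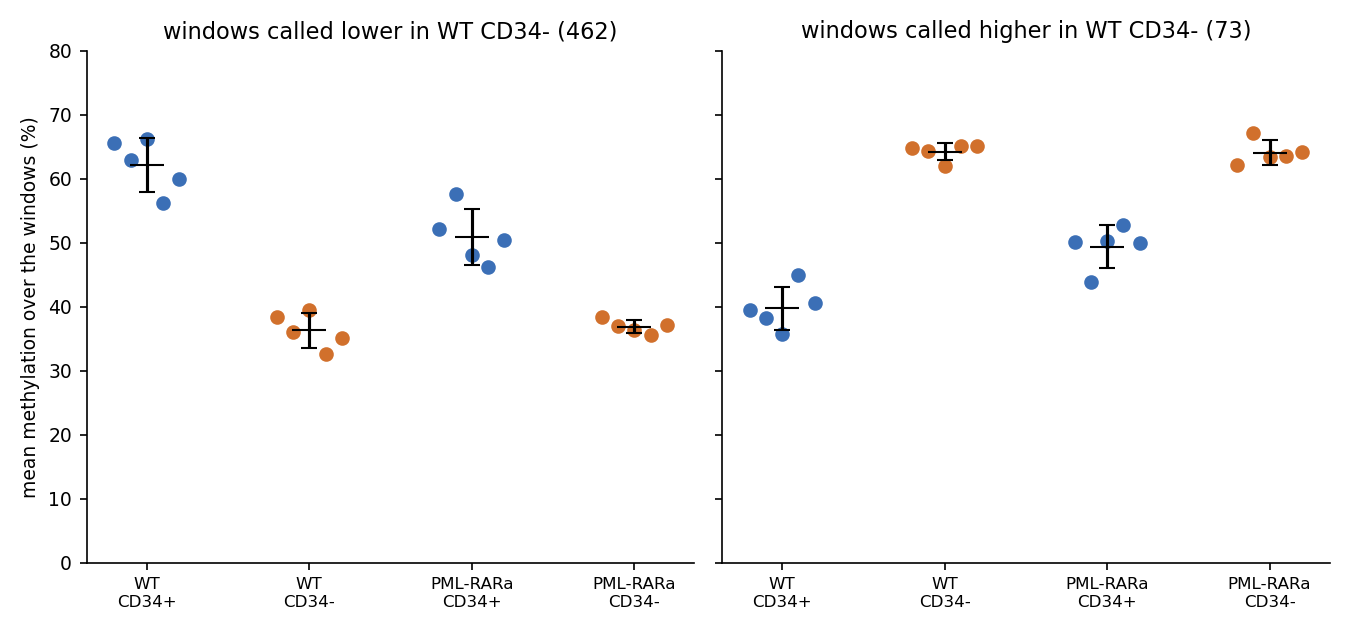
Mean methylation (%) over the windows called lower (left, 462 with a value in each library) or higher (right, 73) in WT CD34-, for each of 5 libraries per group, with the group mean ± SD in black. WT CD34- and PML-RARa CD34- libraries overlap in both panels, and the PML-RARa CD34+ means lie between those of the WT fractions.

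The PML-RARa comparison called 8 windows of its own (0.00629% of 127276), all losses and all among the WT losses. They are named here after their values were seen. The largest WT differences among them were at chr16:32102001-32103000, 2.13 kb from the ciliary gene Cep19, and at chr8:125806001-125807000, 35.5 kb from the DNA repair gene Fanca. At the Cep19 window, WT levels were 51.1%, 55.7%, 62.0%, 43.8% and 51.6% in CD34+ and 10.4%, 8.90%, 16.3%, 5.60% and 1.799% in CD34-, and PML-RARa means went from 30.8% ± 6.52 to 2.83% ± 2.34 (SD, n = 5 each, adjusted p = 0.0109). A window 4.81 kb from Ticam1, the gene of the Toll-like receptor adaptor TRIF, had 34.0%, 56.2%, 47.7%, 32.1% and 40.3% in WT CD34+ and 1.94%, 0%, 4.37%, 0% and 0.421% in WT CD34-, next to 19.5% ± 3.30 and 0.356% ± 0.359 in the PML-RARa fractions (adjusted p = 0.00288). The others were nearest Etnk2, Gm38736, Vsir, Jdp2 (an AP-1 family factor gene, 8.03 kb) and Gm40931, and 7 of the 8 ended below 10% in WT CD34- with Gm40931 as the exception at 40.0%.

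Some libraries were often the lowest or highest of their fraction over the called windows. The same shares over all windows are not given here. WT CD34+ replicate 15 was the lowest CD34+ library in 50.5% of losses and the highest in 49.3% of gains, the values nearest to CD34- in both. WT CD34+ replicates 1 and 9 were the highest in 44.8% and 35.1% of losses. Replicate 1 was also the lowest in 16.4% of losses, and in gains it was the lowest in 34.7% and the highest in 24%. Among CD34- libraries, replicate 16 was the lowest in 45.5% of losses and replicate 10 the highest in 35.5%. Leaving out CD34+ replicate 15 gave 560 calls, of which 470 were among the 565, and leaving out CD34- replicate 16 gave 388, of which 367 were.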

How the data were processed

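ERRBS of 20 libraries was deposited by the authors as a table per library with, per the file headers, the read count (coverage) of each CpG cytosine and strand and the percent of those reads with C or T. Reads were processed with CASAVA 1.8.2 and Bismark on mm9, per the submitters' processing notes. The files list no cytosine under 10 reads. WT total coverage per library, 94591788 to 269013583 reads, sets the precision, and intervals cover counting error only.

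Methylated reads were computed as coverage times percent C, rounded, and summed over the kept cytosines of each 1000 bp window. Windows and cytosines were each tested with a quasi-binomial logistic model on the 10 WT libraries, written in Python 3.11.15 (numpy 2.4.6, scipy 1.17.1, pandas 2.3.3), with overdispersion moderated as in limma and held at 1 or more, and Benjamini-Hochberg adjustment over the whole table. It was tested on simulated data. A call needed an adjusted p below 0.05 and 10 points. limma 3.58.1 and edgeR 4.0.16 (R 4.3.3) were alternatives. Single values used exact permutation tests. The PML-RARa fit and the interaction used the 127276 windows kept in all 4 groups.

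Named windows were the 12 largest decreases and increases, the 3 of smallest p in each direction, the 5 domains with most calls and those nearest a listed gene. The members and lists were chosen with earlier results of these data known. RefSeq promoters were placed by CpG spacing. In the placement check, 99.8% of first placements kept the table's distance to a neighbour within 10 bases. Sex chromosomes were not used.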

Additional observations from a re-analysis of the deposited data

Results flagged for a closer look

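Of 136 sets of 5 libraries checked, 11 had a library whose gap to the nearest other library was large for the range of its group, where chance gives about 1 in 20, or 6.8. No explanation was weighed for them.

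WT CD34+ replicate 1, the library of lowest depth, had a scatter of 8.93 points, against 3.74 to 4.75 points in the other CD34+ libraries, and its level at the gain near Tctn2 was 6.67%, against 25.4% to 31.2%. WT CD34+ replicate 9 stood apart at the start of Zbtb7b (62.1%, others 42.8% to 47.2%) and at the start of Gm39572 (63.6%, others 49.8% to 53.8%). WT CD34+ replicate 15 had 56.3% at the gain near Tgfbr2, where the others had 16.6% to 25.9%.

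Among CD34- libraries, replicate 10 had 61.9% over the called gains (others 64.3% to 65.1%), 3.07% at the loss near Vsir (others up to 0.741%) and 1.72% at the loss near Gm38736, where the others were at 0%. Replicate 16 had 7.00% at the start of Angptl8 (others 1.28% to 2.22%) and 13.1% at the loss near Sgpl1 (others 5.78% to 7.82%). Replicate 8 had 62.6% at the loss near Zfp687, against 64.7% to 65.5%.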

How the results depend on the processing

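The mean was lower in CD34- and losses were the majority of calls under each alternative that was run. Named windows kept their sign wherever levels were computed anew and the window was still present. The limma, edgeR, flowcell, block, overdispersion and threshold settings used the main differences, so a sign could not change there. Named windows were not read on the grid moved by 500 bp. The number of called windows, 565, was 338 with at least 5 cytosines per window, 92 with limma, 71 with edgeR and 89 without moderation, and 319 to 588 with 1 library left out. Other settings gave 379 to 677. An unadjusted p below 0.05 was found in 12141 windows, in 9514 with limma and in 7662 with edgeR. Of 40 windows named by rule, 29 were called without each library in turn, 34 with flowcell as a factor, 16 with limma and 13 with edgeR.

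Called cytosines, 539, fell to 0 with flowcell and ran from 2 to 515 with 1 library left out. With consecutive title numbers as a replicate block, 443 windows and 0 cytosines were called (127440 cytosines had an unadjusted p below 0.05), and with the number after # as the block 569 windows and 138 cytosines. The correlations of consecutive numbers were 0.0777, 0.178, 0.0573, -0.0340 and 0.240 for CD34+ replicates 1, 7, 9, 15 and 17. Other couples of a CD34+ and a CD34- library ran from -0.211 to 0.205. The consecutive number had the highest correlation for CD34+ replicates 1, 7 and 17, but not for replicates 9 and 15. The main test did not pair libraries, and whether consecutive numbers came from the same mouse was not tested. A sign-flip test of the mean over consecutive numbers gave -0.475 points with an exact p = 0.0625, the smallest that 5 pairs allow.

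The mean differed by -2.66 points with reads pooled, -0.594 over every listed cytosine and -0.649 within flowcell A. With 1 library left out, windows below 20% differed by -0.197 to -0.118 points (exact permutation, adjusted p = 0.0363 without CD34- replicate 2 and 0.0454 without CD34- replicate 18) and windows of 20 or more cytosines by -0.200 to -0.115 points (0.0476 without CD34- replicate 2). Genes with a called window within 10 kb numbered 245. The cause of these differences was not tested. Depth limits levels near 0%, and cytosines under 10 reads were not analysed here.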
